A study of Mus musculus with 12 samples.

Results

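Psilocybin was compared with vehicle in mice that had first gone through chronic restraint stress, using 6 of the 12 RNA sequencing libraries of the study, 3 from each group. The psilocybin group was male C57BL/6J mice that had 18 days of restraint and then psilocybin, and the vehicle group was male C57BL/6J mice that had the same restraint and then vehicle. Both groups were therefore stressed, and tissue was taken 24 hours after the treatment. All libraries carry the label monocyte and came from the meninges by a magnetic isolation kit. Libraries were assigned by their titles, and no value was used to choose them. For dose, route, vehicle makeup and whether a library is 1 animal or a pool, a value is not given in the sources used here. P-values below therefore measure the spread between libraries, which may be technical. The remaining libraries are 3 of MDMA after stress, which helped to estimate the spread, and 3 of unstressed mice, which were not used here.

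Psilocybin is converted in the body to psilocin, which activates serotonin receptors and most prominently the 5-HT2A receptor in the brain. The meninges are the membranes around the brain, and they house resident border macrophages, mast cells, lymphocytes and monocytes that arrive from the blood and from skull marrow. Classical monocytes carry Ly6C and the chemokine receptor CCR2, and non-classical monocytes carry the fractalkine receptor CX3CR1.

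The number of genes detected separated the groups, and the read totals did not. The psilocybin libraries held 3378226, 2601848 and 4079069 counts, against 3623830, 807725 and 1954222 in the vehicle libraries. At least 1 count was found for 22589, 22236 and 24053 genes in the psilocybin libraries, against 12691, 15649 and 11039 in the vehicle libraries. The totals overlapped (exact permutation p = 0.3). The numbers of genes did not, and their exact permutation test gave p = 0.1, the smallest that 3 against 3 libraries allow. After every library was thinned at random to 807725 counts, 17749, 18214 and 18441 genes remained in the psilocybin libraries, against 10638, 15649 and 9262 in the vehicle libraries (exact p = 0.1). At 10 or more counts after thinning the groups overlapped, at 9596 to 10177 genes in psilocybin libraries and 5684 to 9636 in vehicle libraries (exact p = 0.2). The vehicle library with the fewest counts, number 2, thus had the most genes of its group, with and without thinning. The biological coefficient of variation, the spread between replicates beyond counting noise, was 0.324 among psilocybin libraries and 1.577 among vehicle libraries. Pairwise Pearson correlations of log2(CPM + 1) across genes, which are not independent replicates, ran from 0.958 to 0.977 among psilocybin libraries. Among vehicle libraries they were 0.76 for numbers 1 and 2, 0.623 for numbers 1 and 3 and 0.663 for numbers 2 and 3. With psilocybin libraries 1, 2 and 3, vehicle library 2 correlated at 0.901, 0.909 and 0.909, above its values within its own group. Vehicle library 1 stood at 0.808, 0.783 and 0.793 with them, and vehicle library 3 at 0.711, 0.683 and 0.708. Mitochondrial transcripts took 4.03% to 5.01% of counts in the psilocybin libraries, against 3.81%, 3.9% and 12.5% in the vehicle libraries. Levels below are CPM, each gene's counts relative to a library total scaled by TMM (trimmed mean of M values).

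**Figure D1:**
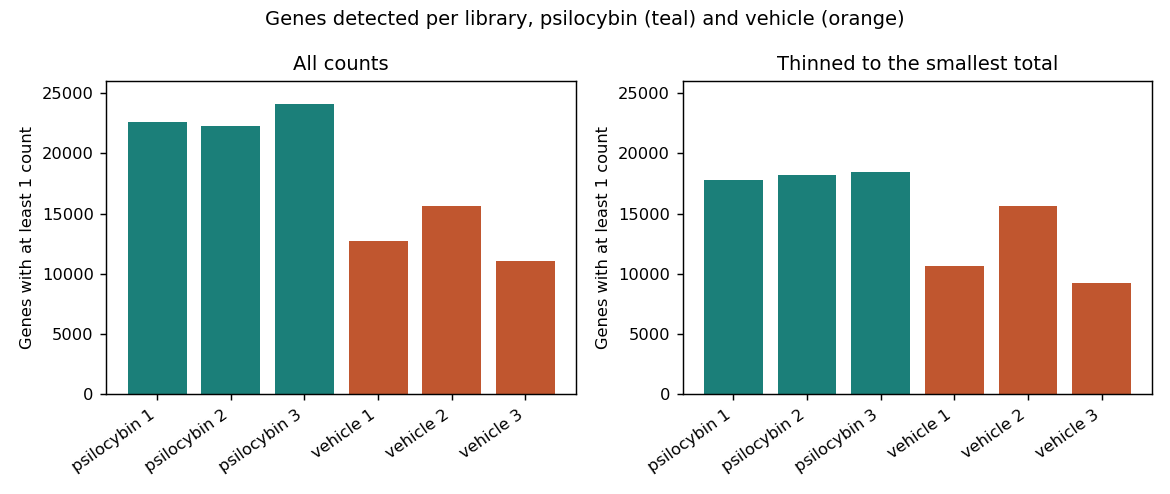
Bars give the number of genes with at least 1 count in each library, from all counts (left) and after thinning each library to 807725 counts (right). The psilocybin libraries (teal) stood at 22236 to 24053 genes and the vehicle libraries (orange) at 11039 to 15649 with all counts, and the groups stayed apart after thinning.

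Markers of other cell types were abundant beside those of monocytes. Summed per library on unscaled totals, the 10 classical monocyte markers reached 266, 273 and 709 CPM in psilocybin libraries and 242, 421 and 673 CPM in vehicle libraries. Fn1 was the largest part of that sum. The means of the psilocybin and vehicle groups were 416 and 445 CPM with Fn1, and 238 and 198 CPM without it. None of the 10 was at 0 in a psilocybin library, against 2, 0 and 3 in vehicle libraries 1, 2 and 3, Ly6c2 of vehicle library 1 among them. The 12 choroid plexus markers reached 119555, 65416 and 68343 CPM in psilocybin libraries and 128964, 65510 and 13287 CPM in vehicle libraries. Pineal gland markers summed to 954, 6867 and 2514 CPM in psilocybin libraries and 1666, 4171 and 9.72 CPM in vehicle libraries. Of the 18 sums of cell markers none separated the groups, with every Benjamini-Hochberg adjusted exact p at 1.0. Without its largest member, a sum had an unadjusted exact p of 0.1 for dendritic cell, mast cell, and pericyte and smooth muscle markers. For the other lists of cell markers it was 0.2 or more. The psilocybin and vehicle means were then 44.2 and 5.89 CPM, 44.2 and 17.9 CPM, and 1445 and 2178 CPM for those named lists. The part of these other cells in the results below was not tested. In bulk libraries fewer cells of a type and less RNA per cell cannot be told apart.

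Of the 55401 Ensembl genes in the table, 28610 had a count in at least 1 of the 6 libraries. Counts in all 6 libraries were found for 7898 of them (27.6%), and between 86.3% and 92.5% of the counts in a library fell on them. Another 10907 genes (38.1%) had counts in all 3 psilocybin libraries and 0 in at least 1 vehicle library. The converse pattern, counts in all 3 vehicle libraries and 0 in a psilocybin library, was found for 51 genes. Among the genes at 0 in a vehicle library, 4264 were at 0 in exactly 1, 3695 in 2 and 2948 in all 3. Vehicle libraries 1, 2 and 3 lacked 7357, 4649 and 8492 of these genes. The missing genes were not all rare. Of 2176 genes that averaged at least 100 CPM in the psilocybin group, none was at 0 in a psilocybin library, against 18, 0 and 52 in vehicle libraries 1, 2 and 3. Of 2301 genes that averaged at least 100 CPM in the vehicle group, again none was at 0 in a psilocybin library, against 40, 7 and 19 in vehicle libraries 1, 2 and 3.

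No gene passed the test across all genes. With edgeR's quasi-likelihood test and Benjamini-Hochberg adjustment over 14331 genes, 0 genes (0.0%) had an adjusted p under 0.05, and the smallest adjusted p was 0.120. The same held for the 7727 genes tested with counts in all 6 libraries (0.0%). At an unadjusted p under 0.05 there were 1458 genes with higher levels after psilocybin (10.2%) and 394 with lower levels (2.75%). DESeq2 called 788 genes higher (5.5%) and 125 lower (0.872%). Limma voom called 32 higher (0.223%) and 0 lower (0.0%), at the same adjusted threshold. Without vehicle library 2, the same edgeR test called 3246 of 14999 genes higher (21.6%) and 294 lower (1.96%), while leaving out any other single library gave 0. Genes are therefore named below by the size and order of their values, and none of them passed the main test.

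**Figure D2:**
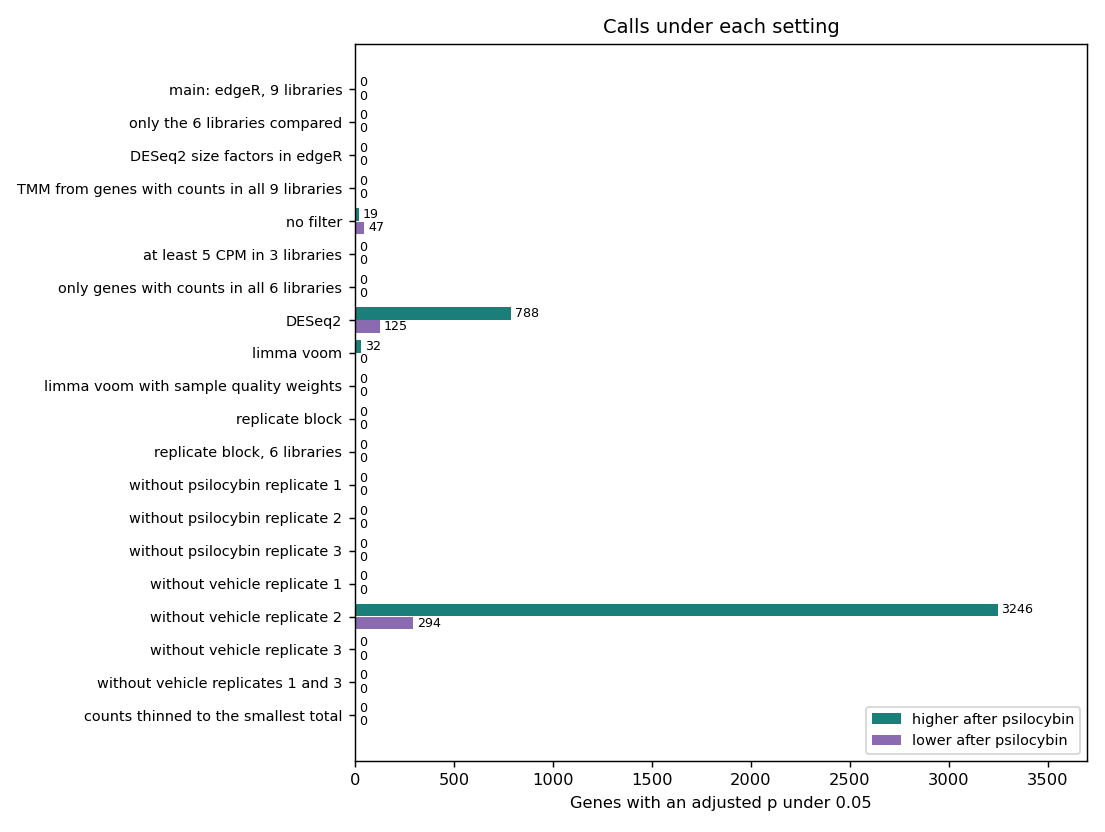
Bars give the number of genes with an adjusted p under 0.05 under the main setting and each alternative, split into higher (teal) and lower (purple) after psilocybin. The main setting stood at 0, DESeq2 at 788 higher and 125 lower, and the fit without vehicle library 2 at 3246 higher and 294 lower.

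As a description, 2716 of the genes tested (19.0%) had all 3 psilocybin libraries above all 3 vehicle libraries, and 504 (3.52%) had all 3 below. Among genes with counts in all 6 libraries these shares were 721 genes (9.33%) and 503 genes (6.51%). Among the 6551 genes tested that were at 0 in a vehicle library and in no psilocybin library, 1995 were above (30.5%) and 0 below (0.0%), as the choice of that class fixes. The median log2 difference, psilocybin minus vehicle, was 0.21 over all genes tested and -0.15 over those with counts in all 6 libraries. With DESeq2's size factors in place of TMM the median over all genes was 0.07, so differences of this size depend on the scaling. Over all alternatives it ran from -0.2, with only genes counted in all 6 libraries, to 1.31 under voom. It was 0.597 without vehicle library 2.

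Among genes with counts in all 6 libraries, 10 higher and 10 lower genes are named. They have the smallest p among genes without overlap between groups, so their lack of overlap is fixed by that choice. On the higher side these were genes with a few counts in each vehicle library. Ubap1 (ENSMUSG00000028437.14, chr4:41348996-41390525 on GRCm38) encodes a ubiquitin-binding subunit of ESCRT-I, the complex that sorts membrane proteins towards lysosomes. It had 96.3, 96.4 and 98.1 CPM in psilocybin libraries, against 0.3, 3.44 and 2.16 CPM in vehicle libraries. The psilocybin libraries were almost alike and lay far above every vehicle library, where Ubap1 rested on 1, 3 and 3 counts. The log2 difference was 5.78 ± 0.97 (SE, n = 3 each), with an edgeR adjusted p of 0.12 and a DESeq2 adjusted p of 1.52e-06. With vehicle library 2 as the lone vehicle library it was 4.86. Nuclear proteins were also among the 10. Smarca1, an ATPase of the ISWI chromatin remodellers, had 24.1, 15.5 and 33.8 CPM in psilocybin libraries and 0.3, 1.15 and 0.719 CPM in vehicle libraries. With 1, 1 and 1 counts in the vehicle libraries, the ratio of pooled counts was 48.2 (95% interval 16.3 to 235), an exact interval that covers counting error only. Yeats2, a histone reader subunit of the ATAC acetyltransferase complex, had 25.3, 35.7 and 31.7 CPM in psilocybin libraries and 2.1, 1.15 and 0.719 CPM in vehicle libraries. Atad2, a bromodomain protein of the nucleus, had 22, 14.1 and 28.6 CPM in psilocybin libraries and 0.3, 1.15 and 2.16 CPM in vehicle libraries. In each of these 3 genes the groups were several-fold apart, and the lack of overlap follows from the choice.

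The others of the 10 were of mixed kinds. Ntrk3, the receptor for neurotrophin-3, had 22.6, 9.53 and 24.5 CPM in psilocybin libraries and 0.901, 1.15 and 2.16 CPM in vehicle libraries, a log2 difference of 3.74 ± 1.10. Sytl2, an effector of Rab27 in vesicle traffic, had 31.9, 18.4 and 27.4 CPM in psilocybin libraries and 0.901, 2.29 and 0.719 CPM in vehicle libraries. Both were higher in every psilocybin library than in any vehicle library. G2e3, a ubiquitin ligase, Ankra2, an ankyrin repeat protein, and the zinc finger genes Zfp944 and Zfp729a had the same order, though reads of Zfp729a may be split with near-identical zinc finger copies. Over the 10 genes the log2 differences ran from 3.74 to 5.78 and the edgeR adjusted p-values from 0.120 to 0.139. DESeq2 called all 10, voom 3 and edgeR without vehicle library 2 all 10, beside 5.5%, 0.223% and 21.6% of all genes called higher. The 10 were chosen by p-value and order in the same counts, so these calls are a description and no support. The vehicle values of the 10 genes rested on 3 to 9 counts over the 3 libraries.

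On the lower side the genes were well counted in every library. Itgb5 (ENSMUSG00000022817.15, chr16:33829665-33949338) encodes the integrin beta 5 subunit, which pairs with integrin alpha V to bind vitronectin. It had 44.8, 26.5 and 41.5 CPM in psilocybin libraries, against 283, 66.5 and 753 CPM in vehicle libraries. Vehicle libraries 1 and 3 were far above the rest and number 2 lay close above the psilocybin range. The log2 difference was -3.29 ± 0.80, with an edgeR adjusted p of 0.12, and -0.76 without vehicle libraries 1 and 3. Its partner Itgav had 89.9, 81.2 and 66.6 CPM in psilocybin libraries and 54.4, 97.5 and 2347 CPM in vehicle libraries, which overlapped, and vehicle library 3 alone was high. Ripk2, the kinase that signals from the bacterial sensors NOD1 and NOD2, had 25.3, 20.1 and 24.9 CPM in psilocybin libraries and 217, 63.1 and 244 CPM in vehicle libraries. Its log2 difference was -2.90 ± 0.71, and -1.37 without vehicle libraries 1 and 3. Every vehicle library was above every psilocybin library.

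The remaining genes of the 10 had the same order. Srsf1, a splicing factor, had 86.3, 163 and 124 CPM in psilocybin libraries and 579, 364 and 541 CPM in vehicle libraries. Tm9sf3, a membrane protein of the secretory pathway, had 106, 168 and 164 CPM in psilocybin libraries and 564, 384 and 692 CPM in vehicle libraries. In both, all 3 vehicle libraries were well above every psilocybin library, number 2 included. Ifi209, an interferon-inducible PYHIN protein, had 6.92, 4.94 and 16.3 CPM in psilocybin libraries and 147, 19.5 and 262 CPM in vehicle libraries, where number 2 lay close to the psilocybin range. Tgtp2, an interferon-inducible GTPase whose reads may be split with a near-identical copy, had 35.8, 16.2 and 40.3 CPM in psilocybin libraries and 195, 74.6 and 247 CPM in vehicle libraries. Ptpn12, a tyrosine phosphatase, Msl2, a ubiquitin ligase of the MSL complex, Diaph2, a formin, and Heca completed the 10. Over these 10 genes the log2 differences ran from -3.92 to -1.90 and the edgeR adjusted p-values from 0.120 to 0.126. DESeq2 called all 10, edgeR without vehicle library 2 all 10 and voom 0, beside 0.872%, 1.96% and 0.0% of all genes called lower. Chosen by p-value and order in the same counts, the 10 gain no support from these calls. Without vehicle libraries 1 and 3 the differences ran from -1.75 to -0.47.

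**Figure D3:**
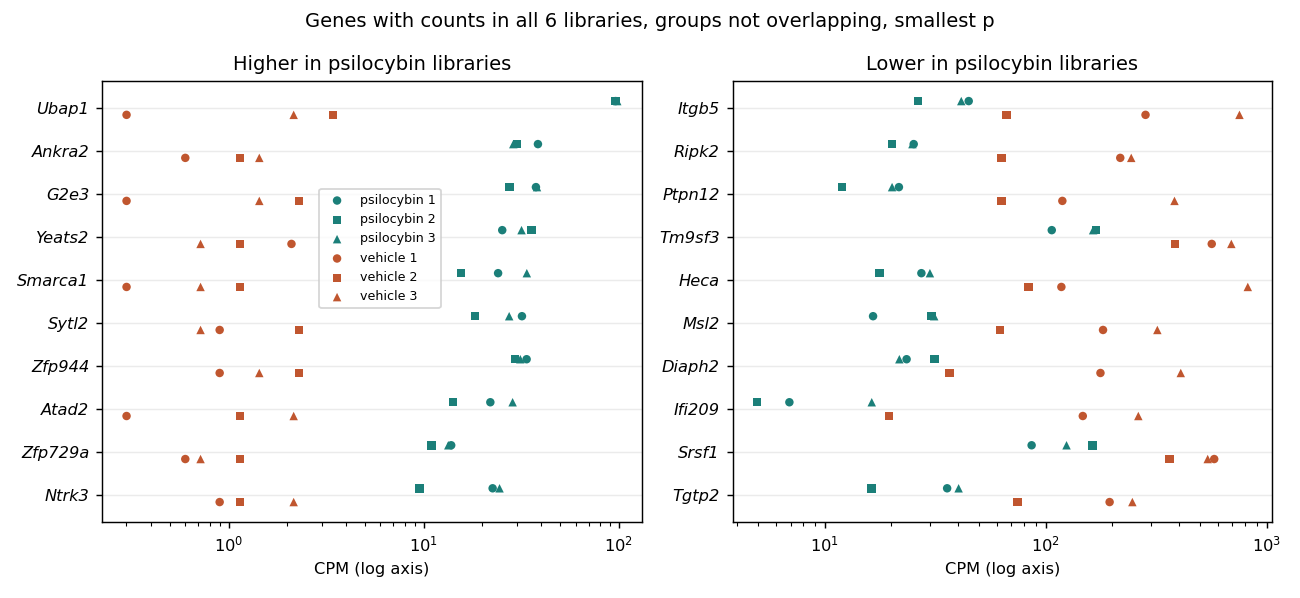
Points give CPM on a log axis for each library of the 10 higher (left) and 10 lower (right) genes with counts in all 6 libraries, psilocybin libraries in teal above vehicle libraries in orange, with a marker shape per replicate number. Psilocybin libraries of the higher genes stood at 9.53 to 98.1 CPM and vehicle libraries at 0.3 to 3.44 CPM, and on the right vehicle library 2 (square) mostly lay nearest to the psilocybin points.

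A gene at 0 in a vehicle library cannot have all psilocybin libraries below all vehicle libraries, so non-overlap in this class is only ever on the higher side. Slc30a4 (ENSMUSG00000005802.12, chr2:122681233-122702663) encodes the zinc transporter ZnT4, which moves zinc out of the cytosol into vesicles. It had 38.2, 45.5 and 40.3 CPM in psilocybin libraries, from 127, 129 and 178 counts, and 0 in each vehicle library. Against a floor of 3 counts over the vehicle group it was at least 76.6-fold higher, with an edgeR adjusted p of 0.12 and a DESeq2 adjusted p of 2.01e-05. Kdm6a, the X-linked demethylase UTX that removes methyl groups from lysine 27 of histone H3, had 38.2, 34.6 and 36.5 CPM in psilocybin libraries and 0.601, 0 and 0 CPM in vehicle libraries. With 2, 0 and 0 counts in the vehicle libraries, the ratio of pooled counts was 102 (95% interval 28.1 to 846). Zfp979, a zinc finger gene with 1 vehicle count, had 37, 49.1 and 46.2 CPM in psilocybin libraries and 0, 0 and 0.719 CPM in vehicle libraries.

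Enzymes were also among the 10. Pygl, a glycogen phosphorylase, had 12.9, 20.1 and 37.6 CPM in psilocybin libraries and 0 in each vehicle library, at least 46.9-fold higher. Enpp1, which hydrolyses extracellular ATP and the immune messenger cGAMP, had 30.7, 14.8 and 33.3 CPM in psilocybin libraries and 0 in each vehicle library, at least 51.3-fold higher. The lysophospholipase Pnpla6 had 34, 39.9 and 28.3 CPM in psilocybin libraries and 0 in each vehicle library, at least 61.9-fold higher. Its relative Pnpla7 had 11.1, 24.7 and 22.2 CPM in psilocybin libraries and 0.3, 0 and 0 CPM in vehicle libraries. Klhl42, a ubiquitin ligase adaptor, Rpgr, a protein of the cilium, and Tcaim were at 0 in all vehicle libraries and at least 36.9-fold higher in psilocybin libraries by the same floor. All 10 genes had an edgeR adjusted p of 0.120. With 0 to 2 counts over the vehicle libraries, these genes passed the filter on low counts through the psilocybin and MDMA libraries, so their p-values, like those of other genes at or near 0 in the vehicle group, are a description and no support.

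The converse class gave 2 named genes. Omp, a marker of olfactory neurons, had 0, 0.353 and 2.49 CPM in psilocybin libraries and 0.3, 11.5 and 76.2 CPM in vehicle libraries. The groups overlapped, with an edgeR adjusted p of 0.28 and a DESeq2 adjusted p of 0.0262. Jaml, an adhesion molecule of leukocytes, had 3.31, 0 and 6.57 CPM in psilocybin libraries and 61.9, 1.15 and 0.719 CPM in vehicle libraries, and vehicle library 1 alone was high (edgeR adjusted p of 0.611 and DESeq2 adjusted p of 0.339).

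Ensembl genes with no RefSeq match, mostly non-coding, were also split by the vehicle libraries. Of 537 tested, 151 had all psilocybin libraries above all vehicle libraries (28.1%) and 12 had all below (2.23%), beside 19.0% and 3.52% of all genes and 30.5% and 0.0% of genes at 0 in a vehicle library. Any count was found for 3138 to 3632 such genes per psilocybin library and 643 to 1104 per vehicle library. Gm14964 (chr19:6530711-6532011), antisense to the synaptic adhesion gene Nrxn2, had 13.2, 9.53 and 12 CPM in psilocybin libraries and 0 in each vehicle library, at least 21.9-fold higher. Nrxn2 itself had 6.32, 11.3 and 8.39 CPM in psilocybin libraries and 0, 2.29 and 0.719 CPM in vehicle libraries. Whether the counting used strand is not given in the sources used here, so reads of overlapping genes may not be told apart. A630052C17Rik (chr11:29170909-29173558), on the strand opposite to Ppp4r3b, had 9.63, 10.6 and 9.07 CPM in psilocybin libraries and 0 in each vehicle library. Ppp4r3b did not share that order, with 218, 183 and 240.0 CPM in psilocybin libraries and 251, 239.7 and 823 CPM in vehicle libraries. Gm48766, overlapping Fars2, Gm45413, overlapping Hook3, and AC121821.1 were also at 0 in all 3 vehicle libraries, with 10 to 22 counts in each psilocybin library.

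On the lower side 2 of the 5 named unmatched genes, Gm43361 and Gm38071, were free of overlap. Gm43361 (chr5:122496159-122500848), opposite in strand to the calcium pump gene Atp2a2, had 27.4, 42.4 and 44 CPM in psilocybin libraries and 341, 55.1 and 283 CPM in vehicle libraries. Atp2a2 had the same order, with 116, 98.9 and 99.5 CPM in psilocybin libraries and 339, 166 and 632 CPM in vehicle libraries. Gm43430, overlapping Nfkb1, had 3.91, 3.18 and 4.53 CPM in psilocybin libraries and 0, 10.3 and 449 CPM in vehicle libraries. Gm44291, overlapping Dennd1a, had 1.5, 2.12 and 1.13 CPM in psilocybin libraries and 0.3, 0 and 365 CPM in vehicle libraries, so vehicle library 3 alone set its direction. Gm21691, antisense to Mylk and Hacd2, was highest in vehicle library 3 and overlapped. Gm38071, overlapping Mir99ahg, had 4.51, 1.77 and 2.49 CPM in psilocybin libraries and 42.3, 13.8 and 11.5 CPM in vehicle libraries, a log2 difference of -2.94 ± 1.15, and -2.15 without vehicle libraries 1 and 3. The edgeR adjusted p-values of these 5 genes ran from 0.233 to 0.285.

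**Figure D4:**
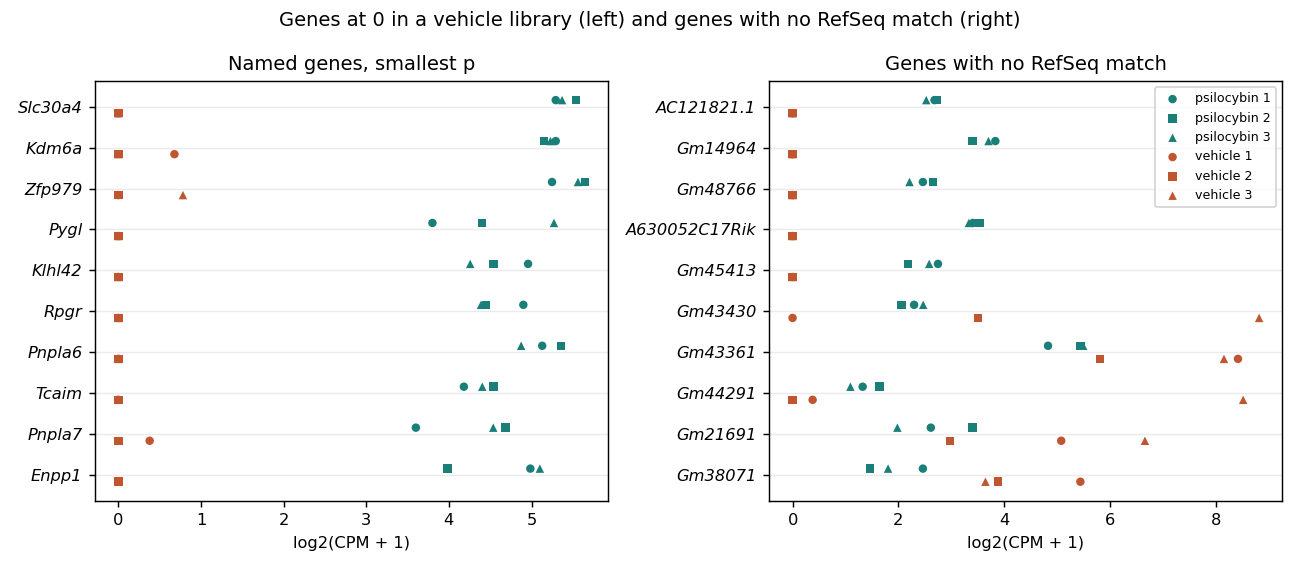
Points give log2(CPM + 1) per library, psilocybin in teal above vehicle in orange, for the 10 named genes at 0 in a vehicle library (left) and 10 genes with no RefSeq match (right). Points at 0 lie over each other. On the left every psilocybin library stood at 11.1 to 49.1 CPM and every vehicle library at 0.719 CPM or less, and on the right Gm43361 and Gm38071 were lower in every psilocybin library than in any vehicle library.

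The receptors through which psilocin acts were scarce in these libraries, apart from Htr2c. Htr2a, its main receptor, had 5.11, 0.706 and 1.13 CPM in psilocybin libraries, from 17, 2 and 5 counts, and 0 in each vehicle library. That was at least 4.23-fold higher by the floor, with an edgeR adjusted p of 0.277. Htr2b had 4, 10 and 11 counts in psilocybin libraries and 0, 1 and 0 in vehicle libraries. Htr7 had 3, 0 and 1 counts in psilocybin libraries and 0, 0 and 0 in vehicle libraries, and both were under the filter for the test. Htr2c, a receptor abundant in choroid plexus, had 357, 219 and 171 CPM in psilocybin libraries and 188, 301 and 147 CPM in vehicle libraries, and the groups overlapped. Of the 24 genes of serotonin receptors and monoamine handling, 9 were tested, and 2 had no overlap with psilocybin higher. The share was 19.0% over all genes and 9.33% over genes with counts in all 6 libraries, as 7 of the 9 had. Tph1, an enzyme of serotonin synthesis in the pineal gland and in mast cells, had 579, 4212 and 1512 CPM in psilocybin libraries and 1333, 2491 and 8.63 CPM in vehicle libraries, with the second library of each group highest. The pineal marker Aanat was likewise highest in the second library of each group, at 12.6, 113 and 43.3 CPM in psilocybin libraries and 1.8, 26.4 and 0 CPM in vehicle libraries. The vesicular transporter Slc18a1 had 7.52, 3.88 and 6.8 CPM in psilocybin libraries and 0, 3.44 and 0 CPM in vehicle libraries, and Slc18a2 overlapped between the groups.

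Neurotrophin and plasticity genes gave no common order. Of 9 tested members, only Ntrk3 was free of overlap, beside 19.0% of all genes higher and 3.52% lower. Bdnf had 12, 5 and 5 counts in psilocybin libraries and 0 in each vehicle library, and was under the filter. Creb1, a transcription factor activated by cAMP, had 112, 95.3 and 83.9 CPM in psilocybin libraries and 6.61, 116 and 1.44 CPM in vehicle libraries, and vehicle library 2 lay above the psilocybin range.

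Immediate early genes, which are switched on within minutes of a stimulus, had more members lower than higher. Of 24 tested, 4 had all psilocybin libraries below all vehicle libraries and 1 had all above, beside 6.51% and 9.33% of all genes with counts in all 6 libraries, as 22 of the 24 had. The median over the 22 members with counts in all 6 libraries was -0.29, beside -0.15 over all such genes, and over the 24 it ran from -0.46 to 0.03 under the alternatives. Ier2 had 355, 239 and 329 CPM in psilocybin libraries and 798, 362 and 1227 CPM in vehicle libraries, a log2 difference of -1.37 ± 0.51 with an edgeR adjusted p of 0.243. Nr4a3, a nuclear receptor, had 8.72, 6 and 8.84 CPM in psilocybin libraries and 116, 16.1 and 28 CPM in vehicle libraries. Both were lower in every psilocybin library, with vehicle library 2 nearest. Its relative Nr4a1, which non-classical monocytes require, had 495, 409.9 and 587 CPM in psilocybin libraries and 729, 729 and 474 CPM in vehicle libraries, which overlapped. Egr3 ran the other way, with 9.33, 9.89 and 13.8 CPM in psilocybin libraries and 0, 2.29 and 0.719 CPM in vehicle libraries.

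Targets of the stress hormone receptor did not separate the groups as a list. Of 18 glucocorticoid-responsive genes tested, 2 were free of overlap with psilocybin higher and 0 with psilocybin lower, beside 19.0% and 3.52% of all genes. Over genes with counts in all 6 libraries, as 13 of the 18 had, the shares were 9.33% and 6.51%. Fkbp5, a chaperone partner of the receptor, had 38.2, 45.2 and 73.9 CPM in psilocybin libraries and 24.9, 120.4 and 41.7 CPM in vehicle libraries. Tsc22d3, also called GILZ, had 711, 329.7 and 897 CPM in psilocybin libraries and 602, 883 and 1448 CPM in vehicle libraries. Both overlapped. Mt1, a metallothionein that binds zinc, had 162, 317 and 209 CPM in psilocybin libraries and 73.6, 110.1 and 26.6 CPM in vehicle libraries, a log2 difference of 1.71 ± 0.68 with an edgeR adjusted p of 0.295. Pdk4, a brake on glucose oxidation, had 32.8, 21.2 and 15.2 CPM in psilocybin libraries and 4.2, 12.6 and 0 CPM in vehicle libraries, likewise with no overlap. Nr3c2, the mineralocorticoid receptor, overlapped between the groups.

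Most monocyte genes overlapped between the groups, Ccr2 and Ly6c2 among them. Ccr2 had 25.9, 16.9 and 68 CPM in psilocybin libraries and 0.3, 14.9 and 26.6 CPM in vehicle libraries, and the first and second psilocybin libraries lay below the third vehicle library. Ly6c2 had 9.63, 5.3 and 19.7 CPM in psilocybin libraries and 0, 22.9 and 39.5 CPM in vehicle libraries. Cx3cr1 had 4.81, 3.18 and 7.48 CPM in psilocybin libraries, from 16, 9 and 33 counts, and 0, 1.15 and 0 CPM in vehicle libraries, from 0, 1 and 0 counts. Cx3cr1 was free of overlap, with an edgeR adjusted p of 0.317. No more than this 1 of 8 non-classical monocyte markers tested was free of overlap, beside 19.0% of all genes higher. In that list 3 differences were positive and 5 negative, with a median log2 difference of -0.23. Of 10 classical monocyte markers tested, 1 was free of overlap with psilocybin higher, beside 19.0% of all genes. It was Plac8, with 10.8, 12 and 26.7 CPM in psilocybin libraries and 0, 5.74 and 0 CPM in vehicle libraries.

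Markers of other leukocytes were mostly near the limit of counting. Border macrophage marker Mrc1 had 11.1, 4.59 and 26.1 CPM in psilocybin libraries and 0.601, 4.59 and 266 CPM in vehicle libraries, and vehicle library 3 was the highest of all. In the same list, 3 of 9 members tested were free of overlap with psilocybin higher and 0 with psilocybin lower, beside 19.0% and 3.52% of all genes. The higher share was 30.5% over genes at 0 in a vehicle library, as 7 of the list's 10 were. Differences were positive for 5 and negative for 4. Pf4 and Clec12a were among the 3, and Cd163 overlapped. Pf4 had 4.81, 3.53 and 39.4 CPM in psilocybin libraries and 0, 1.15 and 0 CPM in vehicle libraries. Microglial P2ry12 had 18, 2 and 31 counts in psilocybin libraries and 0 in each vehicle library. In its list, 3 of 9 members tested were free of overlap with psilocybin higher and 0 with psilocybin lower, against the same shares. The neutrophil gene S100a8 had 25.6, 34.2 and 248 CPM in psilocybin libraries and 4.8, 27.5 and 1.44 CPM in vehicle libraries, where the third psilocybin library was highest and the second vehicle library overlapped. Retnlg and Mmp8, further neutrophil genes, were at 0 in each vehicle library and at 8.84 CPM or less in psilocybin libraries. In the neutrophil list, 4 of 9 members tested were free of overlap with psilocybin higher and 0 with psilocybin lower, against the same shares. T cell genes did not separate the groups, though Cd3g and Il7r were highest in vehicle libraries 1 and 3. Cd3g had 6.92, 4.24 and 11.1 CPM in psilocybin libraries and 40.5, 5.74 and 65.4 CPM in vehicle libraries. Il7r, the receptor for interleukin 7, had 15, 7.06 and 20.2 CPM in psilocybin libraries and 69.1, 3.44 and 162 CPM in vehicle libraries. Of 9 T and NK markers tested, 8 had negative differences and 0 were free of overlap, beside 19.0% of all genes higher and 3.52% lower. Their median log2 difference of -1.75 ran from -2.40 to 0.43 under the alternatives. The mast cell list had 5 members tested, 3 with positive and 2 with negative differences, and 2 were free of overlap with psilocybin higher. That share was 19.0% over all genes and 30.5% over genes at 0 in a vehicle library. The 2 were the growth factor receptor Kit and the histamine-making enzyme Hdc. Hdc had 13.8, 9.53 and 20.4 CPM in psilocybin libraries and 0.901, 0 and 3.6 CPM in vehicle libraries.

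Inflammation genes ran both ways as well. Casp1, the protease that the inflammasome activates, had 10.2, 5.65 and 13.4 CPM in psilocybin libraries and 0 in each vehicle library, with an edgeR adjusted p of 0.122 and a DESeq2 adjusted p of 0.00792. Nlrp3, an inflammasome sensor, had 1.2, 1.06 and 3.63 CPM in psilocybin libraries and 0 in each vehicle library. The cytokine Tgfb1 had 4.51, 3.88 and 4.08 CPM in psilocybin libraries and 16.5, 24.1 and 50.3 CPM in vehicle libraries, lower in every psilocybin library. Its log2 difference was -2.85 ± 1.04, with an edgeR adjusted p of 0.24 and a DESeq2 adjusted p of 0.00419. With vehicle library 2 as the lone vehicle library it was -2.46. Il1b had 5.11, 4.94 and 17.2 CPM in psilocybin libraries and 24.9, 3.44 and 2.88 CPM in vehicle libraries, which overlapped. Tnf had 2, 0 and 6 counts in psilocybin libraries and 0 in each vehicle library, under the filter. Of 16 members tested in the cytokine and inflammasome list, 3 were free of overlap with psilocybin higher and 1 with psilocybin lower, near the 19.0% and 3.52% of all genes.

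Interferon-stimulated genes ran both ways. Of 22 tested, 1 was free of overlap with psilocybin lower and 3 with psilocybin higher, beside 3.52% and 19.0% of all genes. The median over the 11 with counts in all 6 libraries was -1.06, beside -0.15 over all such genes. Over all 22 it was -0.41. Under the alternatives it ran from -1.11, where only 11 members with counts in all 6 libraries were fitted, to 1.27 under voom. Apart from that fit the lowest was -0.64, without psilocybin library 3. The median of all genes ran from -0.2 to 1.31 in the same 2 settings. Gbp2, a guanylate-binding GTPase, had 113, 48 and 129.9 CPM in psilocybin libraries and 104, 165 and 453 CPM in vehicle libraries, which overlapped. Ifit3 had 46.6, 22.6 and 81.8 CPM in psilocybin libraries and 129.7, 81.4 and 402 CPM in vehicle libraries, with vehicle library 2 inside the psilocybin range by a narrow margin. Zbp1, a sensor of nucleic acids in the Z conformation, had 7.82, 4.24 and 10.4 CPM in psilocybin libraries and 0, 1.15 and 0 CPM in vehicle libraries, with no overlap.

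Chemokine and antigen presentation genes were as mixed. Ccr1 was at 0 in each vehicle library and had 1.8, 2.47 and 9.52 CPM in psilocybin libraries. Ccl4, a chemokine of activated macrophages, had 6.62, 3.88 and 15 CPM in psilocybin libraries and 0, 0 and 0.719 CPM in vehicle libraries, higher in every psilocybin library. Ccl6 had 11.4, 6.35 and 21.8 CPM in psilocybin libraries and 79.6, 12.6 and 87 CPM in vehicle libraries, with vehicle library 2 inside the psilocybin range. Of 19 chemokine and receptor genes tested, 4 were free of overlap with psilocybin higher and 0 with psilocybin lower, a share near the 19.0% of all genes on the higher side. H2-Ab1, a chain of MHC class II, had 116, 50.8 and 221 CPM in psilocybin libraries and 259, 188 and 339 CPM in vehicle libraries. Its regulator Ciita had 3.61, 1.77 and 5.44 CPM in psilocybin libraries and 0.3, 0 and 0 CPM in vehicle libraries. H2-Ab1 overlapped and Ciita did not. In the MHC class II list, 2 of 11 members tested were free of overlap with psilocybin higher and 0 with psilocybin lower, beside 19.0% and 3.52% of all genes. The median over the 7 with counts in all 6 libraries was -0.51, beside -0.15 over all such genes. Among phagocytic genes, the inhibitory antibody receptor Fcgr2b had 9.33, 7.41 and 26.7 CPM in psilocybin libraries and 0, 0 and 0.719 CPM in vehicle libraries. Its edgeR adjusted p was 0.12. In the phagocytosis and lysosome list, 2 of 17 members tested were free of overlap with psilocybin higher and 1 with psilocybin lower, against the same shares. Differences were positive for 8 and negative for 9.

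Genes that every cell uses were counted in nearly all libraries. Of 35 ribosomal protein genes tested, 17 had all psilocybin libraries above all vehicle libraries and 0 had all below, beside 9.33% and 6.51% of all genes with counts in all 6 libraries, as 34 of the 35 had. Their median log2 difference was 0.80 over those 34, and 0.53 to 1.30 over the 35 under the alternatives, where that of all genes ran from -0.2 to 1.31. The ribosomal median was below that of all genes under voom (0.83 against 1.31). It was level in the replicate block with 6 libraries (0.984 against 0.983) and above under the other alternatives. Rps28 had 19.9, 13.1 and 12.7 CPM in psilocybin libraries and 1.5, 2.29 and 0.719 CPM in vehicle libraries. Rpl32 had 162, 136 and 157 CPM in psilocybin libraries and 77.8, 67.7 and 18 CPM in vehicle libraries. Vehicle library 3 was the lowest for both. Summed over 36 genes on unscaled totals, ribosomal proteins took 3843, 3422 and 4113 CPM in psilocybin libraries and 3040, 2507 and 1412 CPM in vehicle libraries (exact p = 0.1, the smallest possible, and 0.2 on TMM-scaled totals). Of 27 nuclear genes of oxidative phosphorylation, 7 had the same order, beside 9.33% of all genes with counts in all 6 libraries, with Cox6c at 302, 239 and 202 CPM in psilocybin libraries and 186, 101 and 19.4 CPM in vehicle libraries. The mitochondrial transcript mt-Cytb had 17158, 16648 and 14975 CPM in psilocybin libraries and 16121, 14356 and 77116 CPM in vehicle libraries, and only vehicle library 3 stood out.

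Most genes of cell division were at 0 in a vehicle library. Of 26 tested, 15 were free of overlap with psilocybin higher and 0 with psilocybin lower, beside 19.0% and 3.52% of all genes. Of the 26, 21 were at 0 in a vehicle library and in no psilocybin library, a class in which 30.5% of all genes were free of overlap. Over the 4 with counts in all 6 libraries the median log2 difference was 0.18. Top2a, a topoisomerase of dividing cells, had 7.82, 6.35 and 36.7 CPM in psilocybin libraries and 0, 0 and 0.719 CPM in vehicle libraries. Cdk1, the kinase that starts mitosis, had 5.72, 2.82 and 7.48 CPM in psilocybin libraries and 0 in each vehicle library. Bub1b, of the spindle checkpoint, had 5.41, 12.7 and 13.8 CPM in psilocybin libraries and 0 in each vehicle library. The edgeR adjusted p-values of Top2a, Cdk1 and Bub1b were 0.12, 0.12 and 0.126, and the DESeq2 adjusted p-values were 0.00302, 0.00852 and 0.00755. Summed over the list on unscaled totals, the groups overlapped, at 255, 251 and 530 CPM in psilocybin libraries and 243, 192 and 393 CPM in vehicle libraries.

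**Figure D5:**
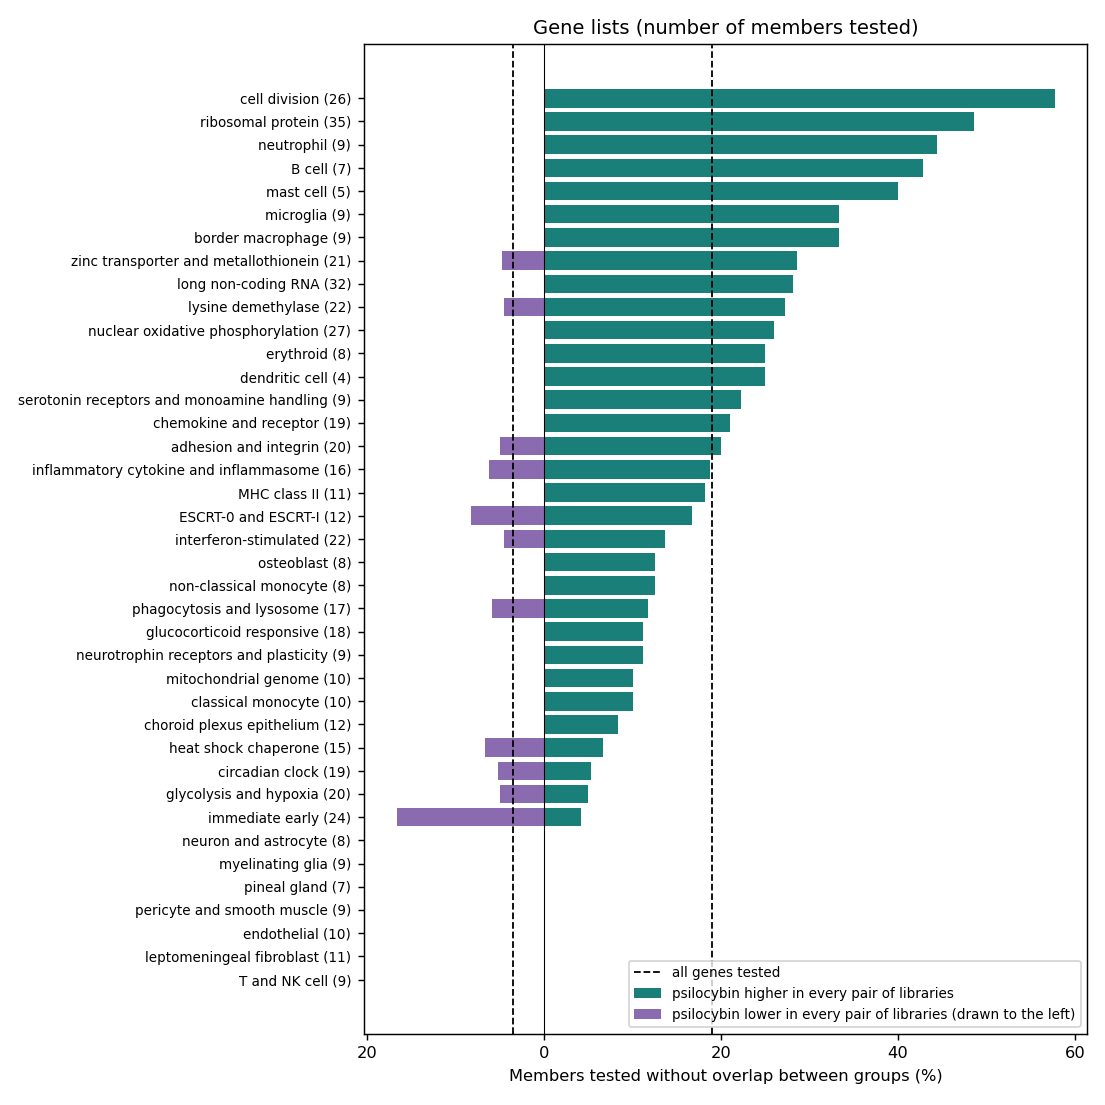
Bars give, for each gene list, the percent of tested members whose psilocybin libraries all lay above (teal, to the right) or all below (purple, to the left) the vehicle libraries, with dashed lines at the shares of all genes tested, 19.0% and 3.52%. Cell division and ribosomal protein genes had the longest bars to the right, and immediate early genes the longest to the left.

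The families of the leading genes were followed as lists. Of 12 ESCRT-0 and ESCRT-I genes tested, 2 were free of overlap with psilocybin higher, beside 19.0% of all genes, and 1 with psilocybin lower, beside 3.52%. Over genes with counts in all 6 libraries, as 10 of the 12 had, the shares were 9.33% and 6.51%. Tsg101, the core subunit of ESCRT-I, had 103, 96.4 and 107 CPM in psilocybin libraries and 201, 177 and 274 CPM in vehicle libraries, the opposite order to its partner Ubap1. Stam2 of ESCRT-0 had 70.1, 92.1 and 73.7 CPM in psilocybin libraries and 2.1, 50.5 and 0.719 CPM in vehicle libraries. Of 21 zinc transporter and metallothionein genes tested, 6 were free of overlap with psilocybin higher and 1 with psilocybin lower, beside 19.0% and 3.52% of all genes. Slc39a1, a zinc importer, had 87.5, 40.6 and 32.2 CPM in psilocybin libraries and 2.7, 3.44 and 16.5 CPM in vehicle libraries. Slc39a10, another importer, had 56.9, 38.8 and 43.1 CPM in psilocybin libraries and 15.9, 29.8 and 10.8 CPM in vehicle libraries. Of 22 lysine demethylases tested, 6 were free of overlap with psilocybin higher and 1 with psilocybin lower, against the same shares. Of these 22, 15 had counts in all 6 libraries. Uty, the Y-linked counterpart of Kdm6a, had 66.2, 54 and 41.9 CPM in psilocybin libraries and 8.71, 9.18 and 12.2 CPM in vehicle libraries, a log2 difference of 2.43 ± 0.77, and 2.61 without vehicle libraries 1 and 3. Its edgeR adjusted p was 0.164 and its DESeq2 adjusted p 0.0172. Kdm4a had 10.2, 27.9 and 20.6 CPM in psilocybin libraries and 0, 1.15 and 0 CPM in vehicle libraries. Kdm1b, a demethylase of lysine 4 of histone H3, ran the other way, with 26.5, 33.5 and 34.9 CPM in psilocybin libraries and 108, 35.6 and 270.4 CPM in vehicle libraries.

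Long non-coding RNAs and clock genes closed the lists. Of 32 long non-coding RNAs tested, 9 were free of overlap with psilocybin higher and 0 with psilocybin lower, beside 19.0% and 3.52% of all genes. Zfas1, a host gene of small nucleolar RNAs, had 9.02, 8.12 and 8.16 CPM in psilocybin libraries and 0, 2.29 and 0 CPM in vehicle libraries. Snhg8, another, had 10.8, 8.83 and 9.07 CPM in psilocybin libraries and 0, 3.44 and 0 CPM in vehicle libraries. Snhg12 had 4.81, 10.9 and 7.71 CPM in psilocybin libraries and 17.1, 0 and 206 CPM in vehicle libraries, and vehicle library 3 stood far above all others. Of 19 clock genes, 1 was free of overlap in each direction, against the same shares of all genes. Over genes with counts in all 6 libraries, as 14 of the 19 had, the shares were 9.33% higher and 6.51% lower. Per2, a repressor of the clock, had 26.5, 15.5 and 29.7 CPM in psilocybin libraries and 55.6, 26.4 and 194 CPM in vehicle libraries, where vehicle library 2 lay inside the psilocybin range.

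The MDMA libraries were set against the same 3 vehicle libraries, so the values are given side by side and their likeness is no independent result. Ubap1 had 84.2, 62.9 and 117 CPM in the MDMA libraries, a log2 difference from vehicle of 5.64 ± 0.96. Slc30a4 had 35.2, 114 and 41.7 CPM in the MDMA libraries and 0 in each vehicle library, so the size of its log2 difference is not measured. Itgb5 had 48, 96.1 and 63.5 CPM in the MDMA libraries, a log2 difference of -2.41 ± 0.77. For MDMA against vehicle edgeR called 0 of the genes named by rank, with a smallest adjusted p of 0.0947. The share of all genes called in that comparison is not given here, so the 0 shows nothing particular to these genes.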

How the data were processed

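RNA libraries were made from 5 ng of RNA per sample and sequenced, per the labels' protocols. The deposited values are raw whole-number counts per Ensembl gene. The submitters' processing notes name edgeR 3.42.4, featureCounts 2.0.1, STAR 2.7.5c, MultiQC 1.11, FastQC 0.11.9, fastp 0.23.2 and the build mm10. For annotation release, strand setting and order of steps, nothing is given in the sources used here. The 9 stressed libraries were read from the table of the whole series, and 3 of its columns, which match no sample used here, were left out. Symbols and positions come from GENCODE vM21 (GRCm38), matched by Ensembl id without version for 55141 of 55401 ids, and RefSeq matches were found for 38597 ids.

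Counts were scaled by TMM, filtered with filterByExpr and tested with edgeR 4.0.16 (quasi-likelihood) in R 4.3.3 over the 9 stressed libraries, psilocybin minus vehicle, with Benjamini-Hochberg adjustment at 0.05. Standard errors were derived from the test statistic. CPM use TMM-scaled totals and marker sums use unscaled totals. The test was checked on counts simulated with 1 common spread for all libraries. Vehicle and psilocybin libraries differed in spread here (biological coefficients of variation 1.577 and 0.324), so that check does not cover groups of unequal spread. Exact permutation tests, two-sided, compared single values per library, and with 3 against 3 they cannot go below p = 0.1. A gene at 0 in a whole group has its fold bounded with a floor of 3 counts over that group, and a gene with 1 to 3 counts has an exact 95% interval. Intervals and floors cover counting error only. The precision of a value follows the depth, which ran from 807725 to 4079069 counts per library in the groups compared. Alternatives were other scalings and filters, DESeq2 1.42.0, limma 3.58.1 voom, a replicate block, thinned counts and leaving out libraries.

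Deviations from the group means over 12194 genes were weakly correlated between same-numbered psilocybin and vehicle libraries (0.128, 0.238 and 0.135). Between other-numbered libraries the correlations ran from -0.233 to 0.06. Deviations from a mean of 3 libraries constrain each other, so these values cannot settle whether the libraries are paired. The numbers in the titles were used as a block in alternatives only, from the data alone, and not in the main test. What the number stands for is not stated in the labels.

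Named genes were up to 10 higher and 10 lower with the smallest p among genes counted in all 6 libraries, at a mean of at least 5 CPM and with no overlap between groups. Added were up to 10 genes at 0 in a vehicle library and 5 at 0 in a psilocybin library with the smallest p, and up to 5 genes higher and 5 lower with no RefSeq match, at a mean of at least 2 CPM. Up to 4 members of each gene list and a set of followed genes completed the rule. Not every gene that the rule allows is described. The lists, the rule and the followed genes were chosen with earlier results of these data known.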

Additional observations from a re-analysis of the deposited data

How the results depend on the processing

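The count of 0 genes past the threshold in edgeR's test held under 15 of 19 alternatives. No filter on low counts gave 66 genes, 20 of them with counts in all 6 libraries, DESeq2 gave 913 and 180, limma voom 32 and 3, and the fit without vehicle library 2 gave 3540 and 680. Leaving out 1 library therefore gave 0 to 3540 genes, and 0 to 680 with counts in all 6 libraries. The cause was not tested, except that no other single library changed the count. With the replicate block, where the numbers were taken to pair the libraries, the count was 0 and 1524 genes had an unadjusted p under 0.05, against 1852 without the block, and no call changed. The block with the 6 compared libraries alone, chosen after seeing the data, also gave 0.

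Psilocybin libraries had more detected genes on average under each count minimum and after leaving out any 1 library, but at 10 or more counts after thinning the difference was 2477 genes and the groups overlapped (exact p = 0.2), against 6285 at 1 or more counts. Leaving out 1 library gave 8789 to 11094 genes more in psilocybin libraries with all counts, and 4991 to 8185 after thinning.

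Of 1909 values for 106 named genes, 40 in 15 genes turned direction and 156 passed the threshold, all under DESeq2, voom, no filter or the fit without vehicle library 2. Without vehicle libraries 1 and 3, the log2 difference turned to 0.13 for Ccl6, 0.435 for Cd3g, -0.20 for Creb1, 5.435 for Gm44291, -0.21 for Htr2c, 1.46 for Il1b, 2.09 for Il7r, 1.58 for Jaml, 1.67 for Mrc1, 7.72 for Snhg12, -0.19 for Tph1 and 0.24 for mt-Cytb. Vehicle library 2 had no count of Gm44291 or Snhg12, so the sizes of their values in that fit are not measured. Under voom the log2 difference turned to 0.43 for Fkbp5, 0.35 for Il1b, 0.47 for Ly6c2 and 0.17 for Mrc1. With quality weights it turned to -0.14 for Htr2c, 0.855 for Il1b, 0.066 for Il7r, 1.02 for Ly6c2, 1.47 for Mrc1 and 0.90 for Snhg12. The replicate block turned Il1b to 0.19, and the block with 6 libraries gave 0.28 for Il1b, 0.029 for Fkbp5, 0.017 for Ly6c2 and 0.054 for Mrc1. Thinned counts gave 0.22 for Il1b. Leaving out 1 library ranged from -6.81 to 2.65 for Gm44291, -3.74 to 1.86 for Jaml, -1.49 to 0.12 for Ly6c2, -1.12 to 1.54 for Il1b, -0.61 to 0.67 for Fkbp5, -0.11 to 0.58 for Htr2c, -3.55 to 2.71 for Mrc1, -0.28 to 1.66 for Tph1, -3.93 to 0.084 for Itgav and -1.51 to 0.11 for mt-Cytb. The libraries whose absence turned these were vehicle 3 for Gm44291, Ly6c2, Mrc1, Itgav and mt-Cytb, vehicle 1 for Jaml and Il1b, vehicle 2 for Fkbp5, psilocybin 1 for Htr2c and Il1b, and psilocybin 2 for Tph1 and Il1b. The causes were not tested. Vehicle library 2 held 807725 counts, where 1 count is over 1 CPM, so a level below that could not be seen in it.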
